A study of Mus musculus with 24 samples.

Results

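Creatine and calcium futile cycling are routes of heat production that do not use uncoupling protein 1, and 9 genes that encode their main enzymes, transporters, pumps and channels are described here in brite adipocytes after knockdown of the long noncoding RNA Ctcflos. Ckb, Ckmt1, Ckmt2, Gatm, Gamt and Slc6a8 belong to the creatine route, and Atp2a1, Atp2a2 and Ryr2 to the calcium route. They were taken by name from a table of 168326 transcript entries under 52089 gene symbols, in which the 9 genes hold 67 entries. Each gene is represented by its protein-coding RefSeq entry with the highest mean over the 24 libraries. The cells were primary preadipocytes from the stromal-vascular fraction of inguinal white fat of 129SvEv mice, given 2 days of adipogenic induction and 1 day of differentiation medium with rosiglitazone, a PPARγ agonist that drives white fat cells to the heat-producing brite state. They then received 50 nM of an LNA gapmer by reverse transfection, an antisense molecule whose pairing lets RNase H cut the RNA, either against Ctcflos (KD) or nontargeting (NC), and were harvested after 24 h or 72 h. KD and NC at each time had 6 libraries. All groups shared the strain, the rosiglitazone and the transfection, so that no untransfected cells enter any comparison. The KD labels do not tell gapmers against Ctcflos apart. Loss of Ctcflos and other effects of a gapmer against it cannot be told apart here, and knockdown below means the KD treatment.

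In the creatine cycle, creatine kinases pass the phosphate of ATP to creatine, and phosphocreatine is hydrolysed again, so that ADP returns to the mitochondria and respiration runs without ATP being used for work. Creatine is made in sequence by the enzymes encoded by Gatm and Gamt, or enters cells through the transporter encoded by Slc6a8. In the calcium cycle, pumps of the SERCA family, encoded by Atp2a1 and Atp2a2, move calcium into the endoplasmic reticulum at the cost of ATP, and release channels such as ryanodine receptor 2, the product of Ryr2, let it out again. Both cycles have been described in brown and beige fat cells of mice.

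Recovered library totals ran from 1391826 to 5926358 reads, with a median of 4009985. Replicates 2 and 3 of NC 72 h differed by less than the sampling noise and were counted as 1 sample, which leaves n = 5 for that group. In NC 72 h replicate 6, 19.98% of the low entries held an odd number of reads, against 56.1% to 58.4% in the other 23 libraries. That library also had the highest total, so its reads, floors and counting intervals may overstate its depth. The cause was not tested. The libraries were divided into clusters of 16 and 8 that cross the groups, with 2 libraries of each group in the smaller, and values within the clusters are given for the called members, for Ucp1 and for the pathway lists. The number of 2 clusters was fixed, and they were drawn from these same data. Calls within a cluster are thus not independent of the split, and their p-values may understate the spread between libraries. Ctcflos itself, in its RefSeq entry, had 12 reads over the KD 24 h libraries against 60 in NC 24 h, and 17 in KD 72 h against 101 in NC 72 h. The entry of Ctcflos transcript 1, on which the paper concentrated its transcriptome work, had 8 reads in KD 24 h against 12 in NC 24 h. At 72 h it had 3 in KD against 41 in NC. KD 24 h replicate 2 held 5 of the 8, and these counts hardly show a fall of this transcript at 24 h. The study calls its replicates biological, but nothing in the labels says that they came from separate cultures, so p-values may measure only the spread between these samples. All fat cell and brite markers had reads in every library. The summed level of 5 brite markers (Ucp1, Cidea, Cox7a1, Elovl3 and Ppargc1a) was 325 to 474.4 scaled RPKM in KD 24 h and 455.1 to 885.9 in NC 24 h, then 378.3 to 719.2 in KD 72 h and 1249 to 2114 in NC 72 h. The sum of 6 general fat cell markers was 36221 to 48358 in KD 24 h and 49030 to 51528 in NC 24 h, then 25409 to 34238 in KD 72 h and 35241 to 47039 in NC 72 h. Of the brite markers, 4 of 5 were called lower at 24 h and 5 of 5 at 72 h. Over all tested entries, 22.7% and 22.3% were called at these times in either direction. Of the general fat cell markers, whose sum is mostly Fabp4, 3 of 6 were called lower at 24 h and 2 of 6 at 72 h (Adipoq -0.96 and Fabp4 -0.58 on the log2 scale), while Cidec was at 0.11 ± 0.12 at 72 h. The sum of 5 smooth muscle markers was 182.7 to 860.3 in KD 24 h and 507 to 1481 in NC 24 h, then 268.5 to 369.5 in KD 72 h and 359.4 to 1080 in NC 72 h. Fibroblast and preadipocyte markers summed to 93.5 to 285.7 over all groups, macrophage markers to 2.57 to 29.7 and endothelial markers to 0.187 to 1.59. Single markers of these lists moved in opposite directions: Csf1r was called higher at both times (1.22 and 1.24), Cd34 higher at 72 h (2.02), Lyz2 lower at 72 h (-3.68) and the smooth muscle marker Tagln lower at 72 h (-0.76). In bulk RNA, fewer cells of a type and less RNA per cell cannot be told apart, and the part of these cell markers in the values of the 9 genes was not tested. Scaled RPKM means the deposited RPKM, reads per kilobase of transcript scaled to the mapped reads of a library, after trimmed-mean scaling between libraries, and a gene is called where limma's adjusted p over all tested entries is under 0.05.

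At 24 h the creatine kinase Ckb was 2.59-fold lower in KD than in NC, and the creatine transporter Slc6a8 was 1.87-fold higher. At 72 h Ckb was 1.96-fold lower, the creatine-forming enzyme Gamt was 2.37-fold lower and Slc6a8 was 2.28-fold higher. The main entry of Atp2a2 passed the test at neither time. The other 5 genes, Gatm, Ckmt1, Ckmt2, Atp2a1 and Ryr2, were too low for the filter on reads. Thus 2 of the 4 tested genes were called at 24 h, where 22.7% of all 52005 tested entries were called, and 3 of 4 at 72 h, where 22.3% of 54446 were. With 1 entry per gene symbol, 11.2% of genes were called higher and 11.6% lower at 24 h, and 10.3% and 12.9% at 72 h. With 4 genes tested, these counts describe the members only. At 72 h the entries called over the whole table were 5613 higher and 6545 lower, and without the scaling 13166 and 3102, since the unscaled values move the median of all entries by 0.25 on the log2 scale. The directions and calls of Ckb, Gamt and Slc6a8 were the same on both scales.

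**Figure D1:**
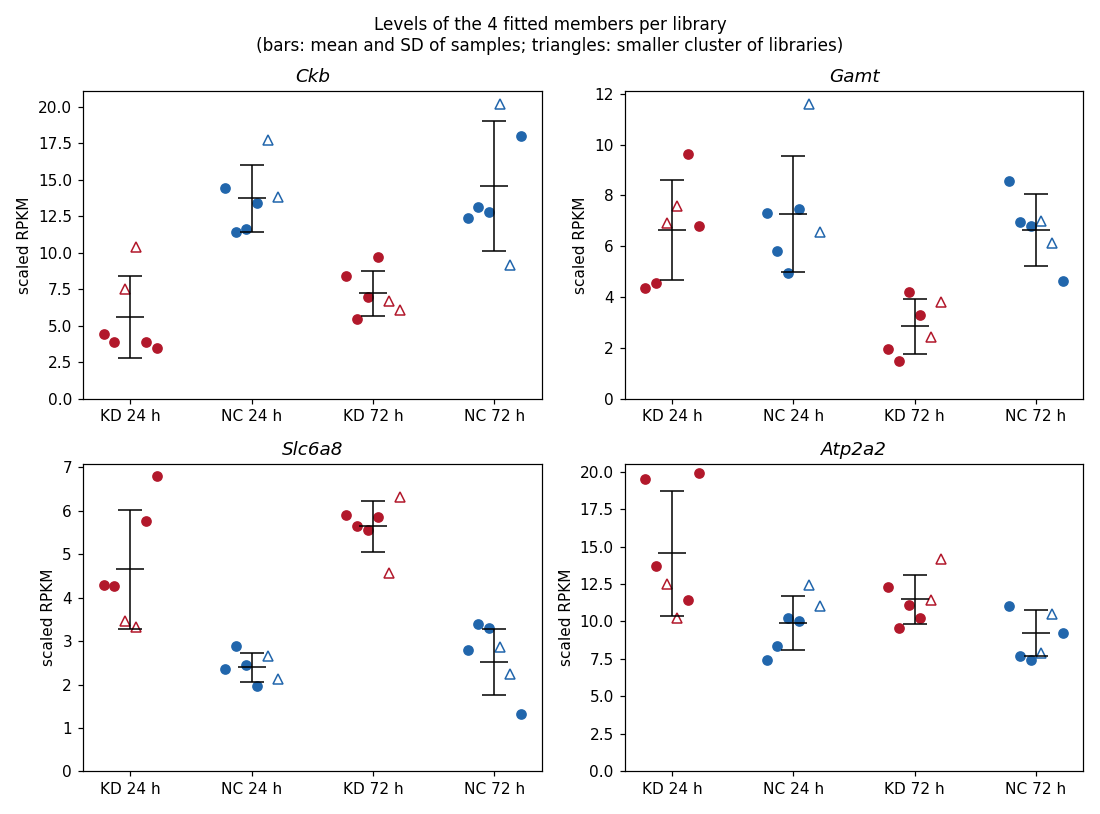
Scaled RPKM (y axis) of the 4 genes that passed the filter, 1 point per library (KD red, NC blue) with the mean and SD of the samples as bars, and triangles for the smaller cluster of libraries. KD points of Ckb lie below all NC points at 24 h, those of Gamt do so at 72 h, and those of Slc6a8 lie above all NC points at both times.

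Ckb (NM_021273) encodes brain-type creatine kinase, an enzyme that forms phosphocreatine. Its gene spans 2.98 kb of chromosome 12 (GRCm38, chr12:111669361-111672338, minus strand). In KD 24 h its level ran from 3.47 to 10.4 scaled RPKM with a median of 4.14, and in NC 24 h from 11.4 to 17.7 with a median of 13.6. All 6 KD libraries lay below all 6 NC libraries at 24 h. The 2 highest KD libraries, replicates 3 and 4, are those of the smaller cluster. Means were 5.59 ± 2.78 and 13.7 ± 2.30 (SD, n = 6 each), and the log2 difference was -1.37 ± 0.25 (SE, limma, adjusted p = 0.00234). In KD 72 h the level ran from 5.48 to 9.68 with a median of 6.83, and the NC 72 h libraries had 12.4, 13.1, 12.8, 20.2, 9.16 and 18. Of the KD 72 h libraries, 5 of 6 lay below the lowest NC library, and replicate 4 lay just above it. The log2 difference at 72 h was -0.97 ± 0.21 (limma, adjusted p = 0.00478). Within the larger cluster the differences were -1.67 and -0.92 with adjusted p = 0.000362 and 0.0113. Within the smaller cluster, with 2 libraries a group, they were -0.81 and -1.07 and neither was called (limma, adjusted p = 0.0999 and 0.0862). All 4 entries of Ckb in the table were called lower at both times, with log2 differences of -1.41 to -1.37 at 24 h and -1.36 to -0.90 at 72 h, but these entries share reads.

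Gamt (NM_010255) encodes guanidinoacetate N-methyltransferase, which adds the methyl group in the last step of creatine synthesis. It lies on chromosome 10 (GRCm38, chr10:80258151-80261012, minus strand) and spans 2.86 kb. In KD 24 h the level ran from 4.36 to 9.61 scaled RPKM with a median of 6.86, and in NC 24 h from 4.95 to 11.6 with a median of 6.92. The groups overlapped almost wholly, and the log2 difference was -0.12 ± 0.24 (limma, adjusted p = 0.755). By 72 h the KD libraries had fallen to between 1.48 and 4.21 with a median of 2.85, whereas the NC libraries had 8.57, 6.97, 6.79, 7, 6.12 and 4.63. No KD 72 h library reached the lowest NC 72 h library. Means were 2.86 ± 1.08 (n = 6) and 6.64 ± 1.43 (n = 5), and the log2 difference was -1.25 ± 0.27 (limma, adjusted p = 0.00476). It was -1.32 within the larger cluster (adjusted p = 0.0224) and -1.07 within the smaller (adjusted p = 0.0715). Counts behind these means were low, 70 reads over the 6 KD 72 h libraries and 141 over the NC 72 h libraries. Of the 5 entries of Gamt, 3 were tested, none was called at 24 h, and all 3 were called lower at 72 h.

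The promoters of these creatine genes with lower RNA at 72 h are shown because they differ in the letters of common core elements. Each run covers 250 bases before to 50 after the start of the gene, read 5′ to 3′ on the minus strand from RefSeq on GRCm38.p6. Capitals mark 3 motifs, each searched on both strands. The TATA box was searched as TATAAA. The second motif, the CCAAT box, is spelled by its name. The GC box was searched as GGGCGG, and in the run of Gamt it is met on the other strand.
Ckb, chr12:111672289-111672588: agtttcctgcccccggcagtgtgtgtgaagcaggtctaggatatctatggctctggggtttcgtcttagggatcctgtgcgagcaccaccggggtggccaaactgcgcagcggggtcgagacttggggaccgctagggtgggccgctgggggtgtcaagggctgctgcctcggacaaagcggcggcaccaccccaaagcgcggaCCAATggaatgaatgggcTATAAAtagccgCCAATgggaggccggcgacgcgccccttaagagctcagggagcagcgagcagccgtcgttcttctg
Gamt, chr10:80260963-80261262: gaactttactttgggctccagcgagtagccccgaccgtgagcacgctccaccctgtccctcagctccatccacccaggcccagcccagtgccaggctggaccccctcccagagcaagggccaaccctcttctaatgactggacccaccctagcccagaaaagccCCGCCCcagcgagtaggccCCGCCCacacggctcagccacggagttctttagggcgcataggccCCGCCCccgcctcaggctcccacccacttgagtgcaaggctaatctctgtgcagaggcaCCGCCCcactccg
The Ckb window holds 1 TATA box and 2 CCAAT boxes, and the Gamt window holds 4 GC boxes and neither of the other motifs. Of 32851 promoters of the same length, 13.6% hold a TATA box, 37.4% a CCAAT box and 35.7% a GC box. A match is a description of the letters, not of a bound site. For 7 of the 9 genes the promoter table had an entry.

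Gatm (NM_025961) encodes glycine amidinotransferase, the mitochondrial enzyme of the first step of creatine synthesis. Its gene lies at chr2:122594467-122611303 on the minus strand (GRCm38). It had 0 reads in all 6 KD 24 h libraries and 0, 2, 6, 1, 4 and 4 reads in the NC 24 h libraries, 17 in all. Reads were thus present in 5 of 6 NC libraries and in no KD library at this time. With 3 reads over the KD group taken as the floor, the NC 24 h read rate was 5.36-fold higher. This ratio leaves out the counting error of the 17 NC reads and their spread between libraries, so it is not a lower bound. The exact two-sided permutation test of the mean RPKM over 924 splits gave p = 0.0152, unadjusted for the 7 such tests. At 72 h the KD libraries had 7, 1, 0, 0, 0 and 0 reads and the NC libraries 1, 3, 3, 0, 4 and 16, and the exact permutation p was 0.346. The 72 h result turned on KD 72 h replicate 1, which held 7 of the 8 KD reads and went against a lower level in KD. Each library was left out in turn, and without that replicate the unadjusted exact permutation p at 72 h was under 0.05. This omission is no separate support for the 24 h difference. The highest value belongs to NC 72 h replicate 6, the library with few odd read numbers. A count of 0 allows a level of 0.215 to 0.914 RPKM in these libraries, which covers counting error only. Gatm was thus near the limit of detection in every group. Of the 6 Gatm entries, 3 were at 0 in every library and none passed the filter.

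Slc6a8 (NM_001142810) encodes the sodium- and chloride-dependent creatine transporter of the plasma membrane. It lies on the X chromosome (GRCm38, chrX:73673150-73682502, plus strand). Its level ran from 3.32 to 6.81 scaled RPKM in KD 24 h with a median of 4.28, and from 1.97 to 2.88 in NC 24 h with a median of 2.39. At 72 h the KD libraries lay between 4.56 and 6.31 with a median of 5.75 (5.64 ± 0.59, SD, n = 6), and the NC libraries had 2.79, 3.40, 3.31, 2.87, 2.24 and 1.33. The lowest KD library was above the highest NC library at both times. The log2 differences were 0.90 ± 0.21 at 24 h (limma, adjusted p = 0.00875) and 1.19 ± 0.22 at 72 h (adjusted p = 0.00174). They were 1.09 and 1.27 within the larger cluster (adjusted p = 0.0119 and 0.0105), and 0.50 and 1.06 within the smaller, where neither was called (adjusted p = 0.406 and 0.0808). The table holds 14 entries of Slc6a8, and all 8 that were tested were called higher at both times. These 8 entries overlap, and a pair of RefSeq entries share all their reads.

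**Figure D2:**
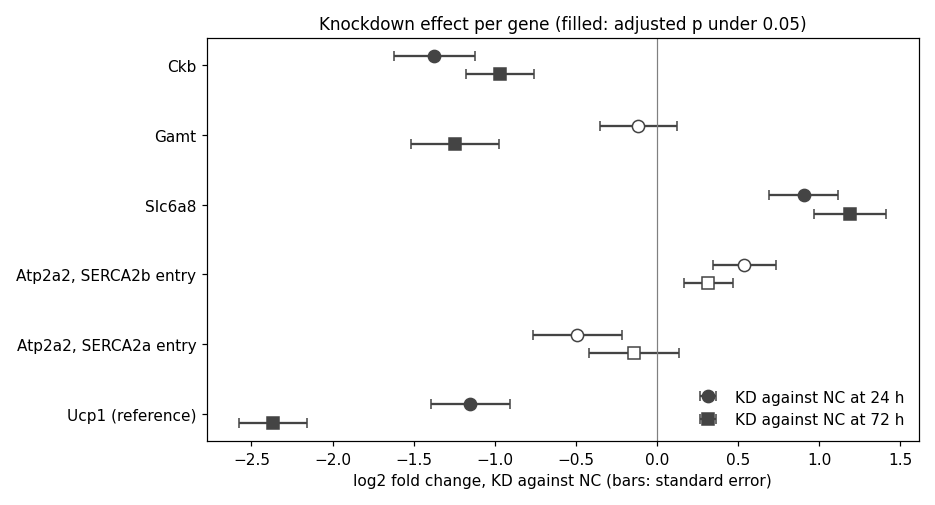
Log2 fold change of KD against NC (x axis) with its standard error, at 24 h (circles) and 72 h (squares), filled where limma's adjusted p was under 0.05. Ckb lies left of 0 at both times, Gamt at 72 h, and Slc6a8 right of 0 at both times, while both Atp2a2 entries are open at each time, and Ucp1 is plotted as a reference.

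Ckmt1 and Ckmt2 encode the ubiquitous and the sarcomeric mitochondrial creatine kinase, which form phosphocreatine between the mitochondrial membranes. Ckmt1 (NM_009897, chr2:121357714-121363737, plus strand, GRCm38) had 3 and 3 reads in KD 24 h replicates 1 and 2, 2 reads in KD 72 h replicate 2, and 0 in the other libraries. The exact permutation test gave p = 0.455 at 24 h and 1 at 72 h. Ckmt2 (NM_198415, chr13:91853387-91876885, minus strand) had 0 reads in all 24 libraries, which allows 0.341 to 1.45 RPKM. These reads are those of 1 entry per gene. At 0 in every library were 2 of the 3 Ckmt2 entries and 7 of the 11 Ckmt1 entries, so another Ckmt2 entry did hold reads. No entry of either gene passed the filter. Neither mitochondrial isoform could be compared between groups at this depth, and Ckb was the only creatine kinase among the members that passed the filter. The muscle creatine kinase Ckm, from the list of other creatine genes, had reads in 2 of the 24 libraries.

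**Figure D3:**
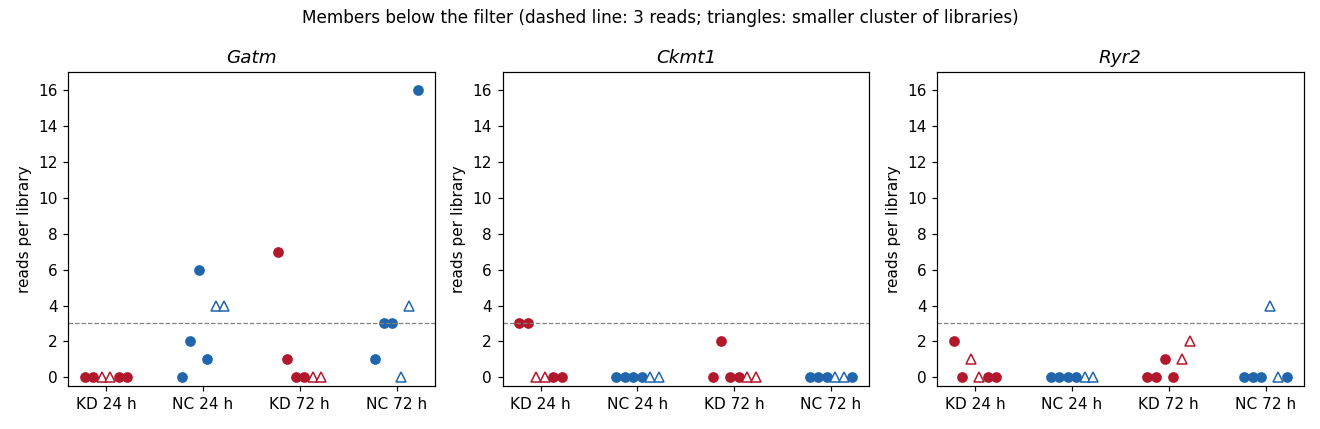
Reads per library (y axis) of Gatm, Ckmt1 and Ryr2 in the 4 groups (KD red, NC blue, triangles for the smaller cluster), with a dashed line at 3 reads. Gatm is at 0 in every KD 24 h library and reaches 16 reads in NC 72 h replicate 6, and Ckmt1 and Ryr2 stay at or under 4 reads.

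Atp2a2 encodes SERCA2, the calcium pump of the endoplasmic reticulum that most cells use. Its gene covers 48.7 kb of chromosome 5 (GRCm38, chr5:122453513-122502225, minus strand). The main entry, NM_001110140, encodes the widely expressed form SERCA2b, and its level ran from 10.2 to 19.9 scaled RPKM in KD 24 h with a median of 13.1, and from 7.41 to 12.4 in NC 24 h with a median of 10.1. Of the KD libraries, 4 of 6 were above the highest NC library, with replicates 1 and 6 well above the rest. The log2 difference at 24 h was 0.54 ± 0.20 and did not pass the test (limma, adjusted p = 0.0606). It was 0.81 within the larger cluster, which was called (adjusted p = 0.0242), and -0.04 within the smaller (adjusted p = 0.937). At 72 h the KD libraries ran from 9.55 to 14.2 with a median of 11.3, and the NC libraries had 11.0, 7.70, 7.44, 7.93, 10.5 and 9.22. Again 4 of 6 KD libraries lay above the highest NC library, and the log2 difference was 0.32 ± 0.15 (adjusted p = 0.149). On the deposited values without scaling it was 0.56 and called (adjusted p = 0.0217). Without KD 24 h replicate 4 the 24 h difference was 0.63 and called (adjusted p = 0.0289). Of the 13 entries of Atp2a2, 10 were tested at 24 h, with log2 differences from -0.72 to 0.81 and 1 called higher, and 9 at 72 h, from -0.59 to 0.52 and none called.

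Atp2a2 is also read as SERCA2a (NM_009722), the form known from heart and slow muscle. The coding sequence ends differently in the 2 forms, and these ends are shown because they tell the deposited entries apart. SERCA2b reads on into an extended exon, so that its last exon is chr5:122456340-122457426, and SERCA2a is spliced from within that exon to its own last exon, chr5:122453514-122454304. The coding sequences hold 1044 codons in SERCA2b and 998 in SERCA2a. In the runs below, on the minus strand of GRCm38, lower case marks 18 bases that both forms share and capitals mark the bases of 1 form up to and including the stop codon.
SERCA2b, chr5:122457151-122457320: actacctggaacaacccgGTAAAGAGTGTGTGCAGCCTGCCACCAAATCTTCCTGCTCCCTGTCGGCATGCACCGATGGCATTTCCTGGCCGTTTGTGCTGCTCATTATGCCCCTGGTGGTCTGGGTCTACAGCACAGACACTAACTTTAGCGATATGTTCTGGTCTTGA
SERCA2a, chr5:122457303-122457320 joined to bases that end at 122454291: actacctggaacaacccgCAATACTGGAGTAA
The own part is 152 bases in SERCA2b and 14 in SERCA2a. In every library the reads of both entries together differed by -2.48% to 2.33% from those of the noncoding entry NR_027838, which covers both ends, so that the entries share few reads.

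SERCA2a took a smaller share of the Atp2a2 reads after the knockdown at 24 h. The share was 12.3, 9.09, 15.4, 15.2, 10.7 and 13.0% in the KD 24 h libraries and 35.3, 16.4, 27.1, 19.6, 18.9 and 22.6% in the NC 24 h libraries. Each KD library lay below the lowest NC library. The means were 12.6 ± 2.48% and 23.3 ± 6.93% (SD, n = 6 each), a difference of -10.7 percentage points, and the exact two-sided permutation test gave p = 0.00217, the smallest that 924 splits allow, or 0.00433 adjusted over both times. At 72 h the shares were 18.9, 18.9, 9.70, 12.7, 16.9 and 14.9% in KD and 22.0, 21.1, 25.3, 14.0, 18.1 and 21.9% in NC. The groups overlapped, and the difference of -4.52 percentage points gave an exact permutation p of 0.0736. Without NC 72 h replicate 4 it was -5.97 (exact permutation p = 0.0286), and with NC 72 h replicates 2 and 3 kept apart -5.08 (exact permutation p = 0.0433). Whether the difference in share changed between the times was not tested. Within the larger cluster the differences were -13.3 percentage points at 24 h and -7.32 at 72 h. Within the smaller cluster, with 2 libraries a group, they were -5.46 and -0.18, where the exact permutation test cannot give p under 0.333. The split rests on 21 to 65 reads of SERCA2a per library, and it was examined after the values had been seen. By level, the SERCA2a entry alone was not called at either time, with log2 differences of -0.49 ± 0.27 (limma, adjusted p = 0.202) and -0.14 ± 0.27 (adjusted p = 0.754).

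**Figure D4:**
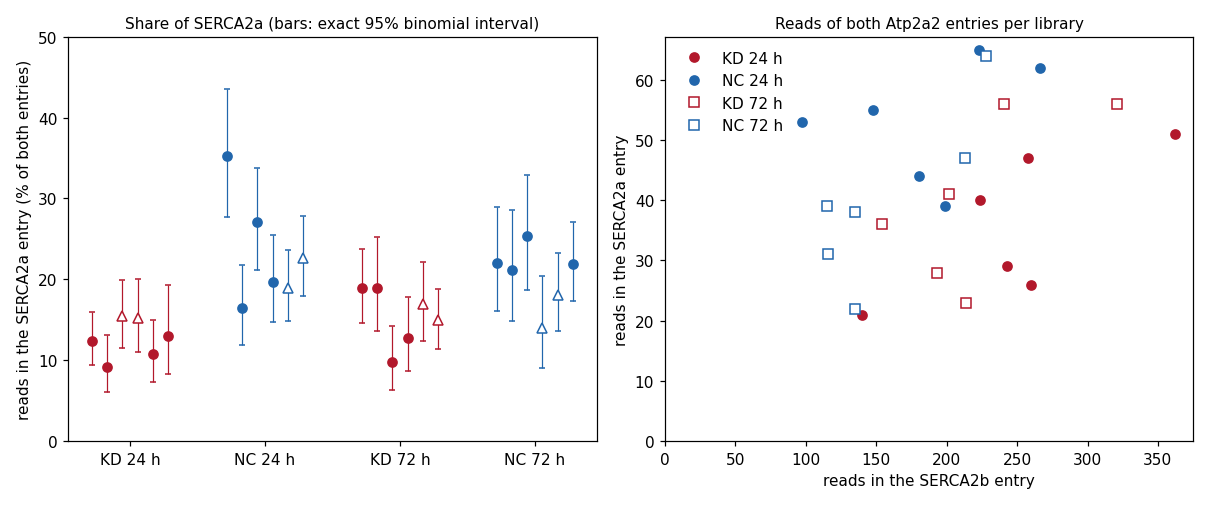
Left, reads of the SERCA2a entry as a percentage of both Atp2a2 entries per library (y axis), with exact 95% binomial intervals that cover counting error only and triangles for the smaller cluster. Right, reads of the SERCA2a entry against reads of the SERCA2b entry. KD 24 h libraries lie between 9.09% and 15.4% and NC 24 h libraries between 16.4% and 35.3%, while the 72 h groups overlap.

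Atp2a1 encodes SERCA1, the pump of fast muscle, and Ryr2 the release channel known from the heart. Atp2a1 (NM_007504, chr7:126445858-126463108, minus strand, GRCm38) had 2 reads in KD 72 h replicate 4 and 0 in the other 23 libraries. Ryr2 (NM_023868) lies at chr13:11553102-12106945 on the minus strand, spans 553.8 kb and is the longest gene of the 9. It had 2 and 1 reads in KD 24 h replicates 1 and 3, 1, 1 and 2 in KD 72 h replicates 3, 5 and 6, and 4 in NC 72 h replicate 4. Exact permutation p-values were 1 for Atp2a1 at 72 h and 0.455 and 1 for Ryr2 at 24 h and 72 h. A count of 0 allows 0.146 to 0.62 RPKM for Atp2a1 and 0.0301 to 0.128 for Ryr2, so that differences under these levels were not detectable. At 0 in every library were 1 of the 4 Atp2a1 entries and 4 of the 7 Ryr2 entries, and no entry of either gene passed the filter. Of 16 markers of skeletal and heart muscle, Myh2 and Myod1 had 0 reads in every library, and the summed level was 6.45 to 20.7 scaled RPKM in KD 24 h, 7.90 to 39.1 in NC 24 h, 1.76 to 10.7 in KD 72 h and 6.58 to 23.1 in NC 72 h. The only marker of that list that passed the filter was Acta1, which was not called at 24 h (-0.37 ± 0.45, limma, adjusted p = 0.573) and was called lower in KD at 72 h (-1.75 ± 0.53, adjusted p = 0.0283) and between the KD times (-1.77 ± 0.48, adjusted p = 0.0296). The part of such cells in the share of SERCA2a was not tested.

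Over time the 4 tested genes moved little in control cells. None was called in NC 72 h against NC 24 h by limma, where 9.12% of entries were called, none had an unadjusted p under 0.05, and limma-voom on the recovered reads called 0 as well. Their log2 differences lay between -0.10 and 0.05, whereas Ucp1 rose by 2.49 (adjusted p = 3.59e-05). In KD cells Gamt was the only member called between the times, where 9.83% of entries were, with a log2 difference of -1.23 ± 0.28 (limma, adjusted p = 0.0116). Entries called over the whole table in this contrast were 2667 higher and 2562 lower, and 5244 and 1241 without scaling. Within the larger cluster the Gamt difference was -1.23 and missed the threshold (limma, adjusted p = 0.0567), and within the smaller it was -1.22 and called (adjusted p = 0.0305). Tested directly, a difference of the knockdown effect between the times was called by limma for 0 of the 4 members, by limma-voom also for 0, and for 0.2% of all entries. The difference of the Gamt effects was -1.12 ± 0.37 (limma, adjusted p = 0.214), the only member with an unadjusted p under 0.05 (0.00556), and the other 3 had adjusted p of 0.673 to 0.783.

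Ucp1, the proton carrier behind the classical route of heat production, is given for reference on the same scale. It had 59.1 ± 13.6 scaled RPKM in KD 24 h, 139 ± 53.8 in NC 24 h, 148 ± 55.9 in KD 72 h and 738 ± 139 in NC 72 h. KD cells thus held 42.4% and 20.1% of the control level at 24 h and 72 h (limma, adjusted p = 0.00486 and 8.23e-06). Within the larger cluster they held 36.7% and 13.8%, and within the smaller 66.9% and 36.1%, where the 24 h difference was not called (limma, adjusted p = 0.0598). For Ckb the same percentages were 40.7% and 49.6%, for Gamt 91.3% and 43.0%, for Slc6a8 193.7% and 223.8% and for Atp2a2 146.8% and 124%. Ucp1 lost more of its control level at 72 h than at 24 h, while that of Ckb stood nearer to control at 72 h. Neither change between the times passed the test of the interaction (limma, adjusted p = 0.152 and 0.673).

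Across the 23 samples, log2 levels of Ckb ran against those of Slc6a8 (Pearson r = -0.77) and of the SERCA2b entry (r = -0.70). Gamt followed Ckb less closely (r = 0.33) and showed r = -0.08 with the SERCA2b entry. The samples of each correlation share their 4 groups and their libraries, so these values describe the groups as much as the genes. Among 5520 well-counted genes, the patterns most like that of Ckb over the 23 samples were those of Dock1 (r = 0.92), Parva (r = 0.92) and 2010012O05Rik (r = 0.91). For Gamt they were Mrp63 (r = 0.82), Retn, which encodes the secreted fat cell protein resistin (r = 0.79), and Ptpmt1 (r = 0.79). Slc6a8 was most like 1500012F01Rik (r = 0.94), Sf3b1, which encodes a splicing factor (r = 0.89), and Trip6 (r = 0.88). The SERCA2b entry of Atp2a2 was most like Taf1d (r = 0.89), Baz1b (r = 0.86) and Sfpq (r = 0.86).

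The rest of the creatine pathway was represented by 10 further genes: the muscle kinase Ckm, the phosphatases Alpl and Phospho1, the adenine nucleotide carriers Slc25a4 and Slc25a5, the outer membrane channels Vdac1, Vdac2 and Vdac3, and Mat2a and Ahcy of the methyl cycle that serves Gamt. At 24 h 8 were tested, 0 were called higher and 2 lower, which is 25% against 22.7% of all entries, with a median log2 difference of -0.32 against -0.01 over all entries. At 72 h 9 were tested, 0 higher and 3 lower, which is 33.3% against 22.3%, with a median of -0.10. These counts rest on single libraries, since leaving out KD 24 h replicate 1, 2 or 5 or any NC 24 h library left 1 gene called at 24 h, and leaving out KD 72 h replicate 1 left 1 at 72 h. Slc25a4, which exchanges ADP for ATP across the inner membrane, was 267.9 ± 85.9 scaled RPKM in KD 24 h and 421.5 ± 23.0 in NC 24 h (log2 difference -0.70 ± 0.18, adjusted p = 0.0134), and it was not called at 72 h. Slc25a5, a second such carrier, was called at 72 h only (-0.34 ± 0.10, adjusted p = 0.0218). Vdac2 was called lower at both times (-0.52 and -0.31) and Vdac3 at 72 h (-0.42, adjusted p = 0.00531). Alpl, a phosphatase of phosphocreatine in mitochondria of thermogenic fat, differed by 0.78 ± 0.42 and 0.57 ± 0.46 and was not called. All calls of this list were also made within the larger cluster and none within the smaller, where Slc25a4 differed by -0.15 and Vdac2 by -0.01 at 24 h, and the 3 genes called at 72 h by -0.41 to -0.24.

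Around the calcium cycle, 53 further genes were listed and 50 were in the table. At 24 h 33 were tested, 4 were called higher and 10 lower, which is 42.4% against 22.7% of all entries, with a median log2 difference of -0.21. At 72 h 35 were tested, 3 higher and 6 lower, which is 25.7% against 22.3%, with a median of -0.04. Of the 14 genes called at 24 h, 12 were called within the larger cluster and 3 within the smaller, and of the 9 called at 72 h, 8 and 2 were. All had the same direction in both clusters except Letm1 at 72 h, which was at 0.04 in the smaller. Of 6 tested genes of mitochondrial calcium handling, 2 were lower at 24 h, and of 7 at 72 h, 3 were lower and 1 higher. These calls are 33.3% and 57.1% of the tested genes, against 22.7% and 22.3% of all entries. Mcu, the pore of the mitochondrial calcium uniporter, ran from 3.35 to 20.9 scaled RPKM in KD 24 h and from 53.1 to 67.2 in NC 24 h, then from 10.2 to 23.2 in KD 72 h and from 45.8 to 63.5 in NC 72 h. These groups were far apart at both times, with log2 differences of -2.44 ± 0.31 (limma, adjusted p = 0.000252) and -1.74 ± 0.21 (adjusted p = 7.81e-05). Micu2, which encodes a regulatory subunit of the uniporter, fell by 0.87 and 0.79 on the log2 scale. Within the smaller cluster Mcu was called at both times (-1.52 and -2.52, limma, adjusted p = 0.00511 and 0.000117), while Micu2 was not (-0.44 and -0.58). Slc8b1, the exchanger that lets calcium out of mitochondria, was 1.48 ± 0.54 scaled RPKM in KD 72 h and 0.35 ± 0.19 in NC 72 h (1.86 ± 0.36, adjusted p = 0.00241), and it was not called at 24 h (0.64 ± 0.45). In the smaller cluster Slc8b1 differed by 2.05 at 72 h and was not called (limma, adjusted p = 0.0992). Slc8b1 was below the filter between the NC times, so it passed at 72 h only with the help of its KD libraries. Its selection for the 72 h test was thus not independent of the difference. The genes Mcu and Micu2 span 169.7 and 83 kb and Slc8b1 22.9 kb, and the part of gene length in these values was not tested.

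Among calcium-binding proteins of the reticulum, 5 of 9 tested genes were lower and 1 higher at 24 h, and 2 were lower at 72 h. That is 66.7% at 24 h against 22.7% of all entries, and 22.2% at 72 h, near the 22.3% of all entries. Calu, which encodes the calcium-binding protein calumenin, fell by 0.83 and 0.63 on the log2 scale at the 2 times, and the chaperone Hsp90b1 by 0.51 and 0.31. Hspa5 and Calr were called at 24 h (-0.35 and -0.38) but not at 72 h (-0.22 and -0.04). Of the other pumps and release channels, Itpr1 and Itpr2 were the 2 of 4 tested genes called at 24 h, both lower, and none was called at 72 h. That is 50% and 0% of 4 tested genes. Itpr1 differed by -0.83 ± 0.23 at 24 h (limma, adjusted p = 0.0182). Itpr2, an inositol trisphosphate receptor, was 0.22 ± 0.12 scaled RPKM in KD 24 h and 0.63 ± 0.15 in NC 24 h (-1.25 ± 0.30, adjusted p = 0.0095). Itpr2 was below the filter between the KD times, so it passed at 24 h only with the help of its NC libraries. Fkbp1a, which binds release channels, was higher at both times (0.57 and 0.56). Stim2, a sensor of the calcium store, was higher at 24 h (1.05 ± 0.25, adjusted p = 0.00941) and not called at 72 h, and Saraf, which dampens store refilling, was higher at both (0.69 and 0.54). Sarcolipin and phospholamban, the small peptides that inhibit SERCA pumps, were in the table as Sln and Pln but below the filter. In the smaller cluster the 24 h differences of Fkbp1a, Stim2 and Saraf were 0.22, 0.60 and 0.38 and that of Calu -0.51, none called, and that of Itpr2 was -1.04, also not called.

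**Figure D5:**
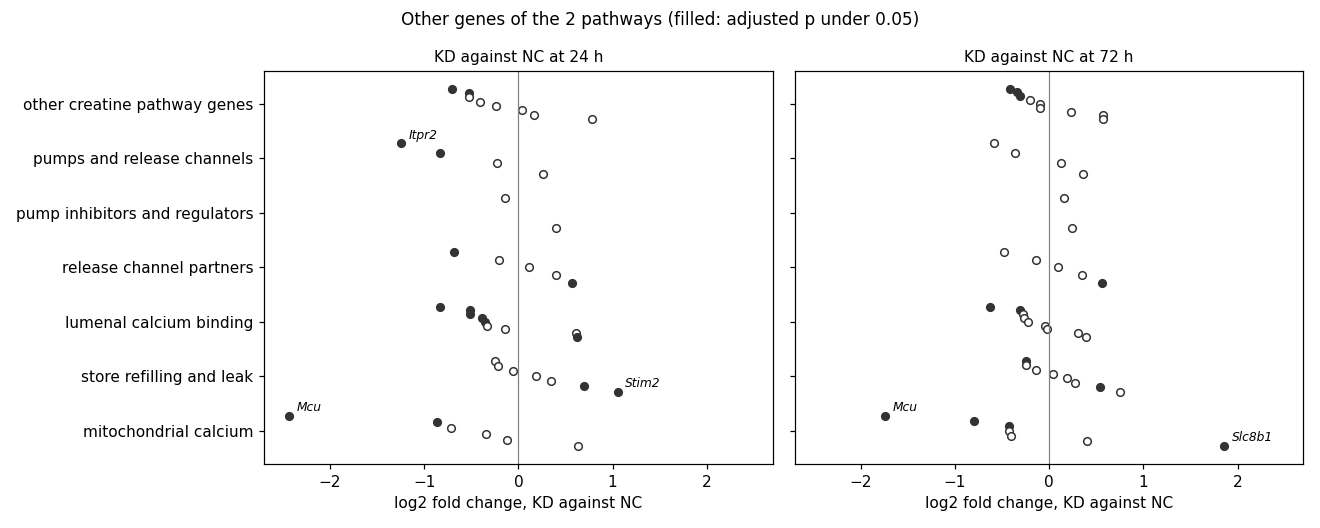
Log2 fold change of KD against NC (x axis) at 24 h (left) and 72 h (right) for the tested genes of the other creatine genes and of 6 groups of calcium genes, 1 point per gene, filled where limma's adjusted p was under 0.05. Mcu lies farthest left at both times, and Slc8b1 lies farthest right at 72 h, where it passed the filter only with the help of its KD libraries.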

How the data were processed

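Bulk RNA barcoding and sequencing, which reads the 3′ ends of polyadenylated RNA, was used on 24 libraries of mouse brite adipocytes. Mapping was done by the authors in the Genomatix suite, and they tested each time point with DESeq2, and the genome build and the handling of strand are not given in the sources used here. The values the authors deposited are RPKM per transcript entry, and since 3′ reads do not grow with transcript length, RPKM understates long transcripts. The deposited table writes its RPKM with decimal commas, and overlapping entries of a gene share reads. Entry lengths and library totals were recovered from the RPKM steps of 1 read: 95.1% to 95.64% of low values came out whole within 0.1 read. No column was left out.

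The RPKM were scaled with trimmed means of log ratios (30% and 5% trimmed) and tested as log2(scaled RPKM + 0.1) with limma 3.58.1 in R 4.3.3, with an intensity trend, two-sided, and Benjamini-Hochberg adjustment over all entries with the equivalent of 10 reads in as many samples as the smaller group and 15 reads in all. A fold change on this scale understates that of low genes. KD and NC were compared at each time, the times within KD and NC, and the interaction over all groups. Genes below the filter were compared by exact two-sided permutation tests in purpose-written code that doubles the smaller tail, checked against scipy 1.17.1. Intervals and floors cover counting error only. Library clusters came from average linkage on the deviations of these same data from the group means, cut into a larger and a smaller cluster. The fits were tested on simulated data. Alternatives changed the scaling, pseudocount, filter, entries, unit, block, samples and clusters 1 at a time. The genes, the lists and the rule for named genes (the 9 genes, up to 12 called genes of each pathway list by adjusted p, and the 3 most alike genes per member) were chosen with earlier results of these data known. Letm1, Alpl, Sln, Pln, Ckm, Acta1 and the other cell markers were named outside that rule after their values were seen. Gene positions and transcript ends are from GENCODE on GRCm38, promoters from RefSeq on GRCm38.p6. The symbols Saraf, Mcub and Adgre1 were matched by RefSeq accession, and Mrln, Strit1 and Erln had no match in the table. Other genes of the calcium list are not reported here and enter no count of that list. Amino acid sequences and the gapmer sequence are not used here.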

Additional observations from a re-analysis of the deposited data

Results flagged for a closer look

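Dixon's test of the highest or lowest sample within a group, applied to 29 groups of values of the 9 genes and of the SERCA2a share, marked 4 samples, all of genes below the filter on reads and all far above a group median of 0. Chance marks about 1 in 20 groups of continuous values, but in 3 of the 4 a single library held all reads of its group, which is always marked, so that rate does not apply to them. Ckmt1 had 0.3845 RPKM (2 reads) in KD 72 h replicate 2, Gatm 0.765 RPKM (7 reads) in KD 72 h replicate 1, Atp2a1 0.1431 RPKM (2 reads) in KD 72 h replicate 4, and Ryr2 0.06104 RPKM (4 reads) in NC 72 h replicate 4. The other libraries of these groups had 0 reads, except KD 72 h replicate 2 with 1 read of Gatm.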

How the results depend on the processing

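Of the fold changes of the 4 tested genes over all comparisons, 268 of the values under other settings kept their direction and side of the threshold, 6 newly passed it, 6 no longer did and 11 turned direction. Of those without 1 library, 265 kept both, 1 newly passed and 10 turned. The smaller cluster, with 2 libraries a group, called 0 members at 24 h and 0 at 72 h, 0 other creatine genes at both times and 3 other calcium genes at 24 h. No filter left 1 creatine gene at 24 h and 1 at 72 h, and 9 calcium genes at 24 h, against 14. A pseudocount of 0.01 left 1 creatine gene at 24 h, unscaled values 1 (higher) at 72 h and all groups in 1 fit 0 at 72 h. A filter of 30 reads, which removes Gamt, left 0 members called between the KD times. Without single libraries, 2 to 3 members were called at 24 h and 3 to 3 at 72 h. Creatine genes called were 1 to 3 at 24 h and 1 to 3 at 72 h, and calcium genes 12 to 16 and 6 to 10. Of the exact permutation tests of members below the filter, counted over both times and not by gene, 1 to 2 had an unadjusted p under 0.05. The share of SERCA2a differed by -12.09 to -8.30 points at 24 h and by -5.97 to -3.40 at 72 h, and by -5.08 with all libraries kept apart. In the smaller cluster it was -5.46 at 24 h, where 2 libraries a group cannot pass the test. The SERCA2b entry at 24 h was called on RefSeq entries alone (adjusted p = 0.0412), by limma-voom on recovered reads (0.0489) and with all groups in 1 fit (0.0266). The causes of these shifts were not tested unless stated.

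None of the values that turned direction was called. For KD against NC at 24 h these were Atp2a2 in the smaller cluster (-0.042) and Gamt without single libraries (-0.23 to 0.024). Between the NC times they were Ckb in the smaller cluster (-0.18) and without single libraries (-0.083 to 0.20), Gamt in the larger cluster (0.040) and without single libraries (-0.20 to 0.031), Slc6a8 unscaled (-0.0012), by limma-voom (-0.080), in the larger cluster (-0.038), without NC 72 h replicates 2 and 3 (-0.098) and without other single libraries (-0.040 to 0.22), and Atp2a2 in the larger cluster (0.031). In the smaller cluster Ckb (-0.45) and Atp2a2 (0.19) turned between the KD times, and Ckb (-0.26) and Atp2a2 (0.53) in the interaction. In the larger cluster Ckb was called between the KD times (0.91, adjusted p = 0.0271).

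The replicate numbers share only a number: same-numbered KD and NC libraries had mean correlations of deviations of -0.10 at 24 h and 0.04 at 72 h. With the replicate block 1 creatine gene was called at 24 h, 2 and 3 members stayed called at 24 h and 72 h, and calls over the whole table went from 11821 to 8744 and from 12158 to 10795. Depth limits the 5 genes below the filter, for which only large differences can be seen.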

Other observations

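In control cells, calcium-binding proteins of the endoplasmic reticulum moved between 24 h and 72 h in both directions, with 3 of 9 tested genes called higher and 3 lower by limma, where 9.12% of all entries were called. Rcn3 was 0.61 ± 0.09 higher on the log2 scale (SE, adjusted p = 0.000462), Sdf4 0.45 ± 0.08 (adjusted p = 0.00339) and Calu 0.34 ± 0.09 (adjusted p = 0.0306). The chaperones Calr, Hsp90b1 and Hspa5 fell by 0.44, 0.37 and 0.25 on the log2 scale (adjusted p = 0.00263, 0.00534 and 0.042). In KD cells Rcn3 rose by 0.92 ± 0.14 (adjusted p = 0.000559), and Mcub, the inhibitory subunit of the uniporter, rose by 2.17 ± 0.58 between 24 h and 72 h (adjusted p = 0.0273). In NC cells Mcub was 1.26 ± 0.45 higher at 72 h and was not called (limma, adjusted p = 0.1025). Neither Rcn3 nor Mcub was called in the interaction (limma, adjusted p = 0.461 and 0.693). These genes were named after their values were seen.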
